A study of Mus musculus with 8 samples.

Results

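H3K27-me3, the trimethylated form of lysine 27 of histone H3, was mapped by ChIP-seq in fasted mouse liver, and 7 autophagy genes that had an enriched region nearby only in mice given AAV-TBG-Cre were examined here. The genes were Stx17, Pink1, Atg16l1, Atg101, Plekhm1, Wipi1 and Vps16, out of 21851 protein-coding genes in all. They were chosen by the readout itself, since each had a region within 15 kb of a transcription start site in the AAV-Cre list and none in the AAV-GFP list, so their difference between the lists is the rule of selection and not a finding. Both groups were male JMJD3-floxed C57BL/6 mice, injected at the age of 8 weeks, and a fast of 16 h preceded collection 12 weeks later. The AAV-Cre group received AAV-TBG-Cre, in which the TBG promoter drives the Cre recombinase in hepatocytes, and the control group, which carried the same floxed alleles, received AAV-GFP. Each virus was represented by 2 H3K27-me3 libraries and 2 libraries of input DNA, 8 in all, and the authors derived 1 list of enriched regions per virus from both replicates. No value per mouse was therefore available, no test between the groups could be made, and every difference between the lists below is a description without a replicate check. Chromatin came from minced liver tissue, which holds other cells beside hepatocytes, so that a mark on fewer cells and less of the mark per cell cannot be told apart. How far Kdm6b, the gene that encodes JMJD3, was deleted cannot be read from lists of peaks.

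JMJD3 is a demethylase that acts on lysine 27 of histone H3. Its substrate H3K27-me3 is deposited by Polycomb repressive complexes and is found at genes that are kept silent, above all at regulators of development. Autophagy encloses cytoplasm, lipid droplets or damaged organelles in a membrane, the autophagosome, which then fuses with the lysosome, and in the liver this supplies nutrients during a fast. The 7 genes act at different steps. Atg101 belongs to the ULK1 kinase complex that starts the process, Wipi1 binds the phosphoinositide PI3P on the forming membrane, and Atg16l1 directs the attachment of LC3 to that membrane. Pink1 is the kinase that marks damaged mitochondria for removal. Stx17 is the SNARE protein of the autophagosome that drives its fusion with the lysosome, Vps16 is a core subunit of the tethering complexes HOPS and CORVET, and Plekhm1 is an adaptor that links Rab7 with HOPS.

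The nearest AAV-Cre region of each gene is the unit on which its selection rests, and the sequence under the summit of 5 of these regions is shown so that their base composition can be seen. Pink1 and Vps16 had the strongest of the nearest regions, Stx17 had the closest, Atg16l1 had the narrowest, and Atg101 had the most GC-rich. Each sequence is the 201 bases centred on, or next to, the highest point of the region, read from the plus strand of GRCm38 (mm10). The capitals mark CG dinucleotides, the sites of CpG methylation. None of the windows overlapped coding or untranslated sequence of a protein-coding gene.
Pink1: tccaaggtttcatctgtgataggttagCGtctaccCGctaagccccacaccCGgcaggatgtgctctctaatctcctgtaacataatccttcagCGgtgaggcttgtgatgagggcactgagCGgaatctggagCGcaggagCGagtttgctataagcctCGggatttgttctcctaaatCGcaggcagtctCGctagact
Vps16: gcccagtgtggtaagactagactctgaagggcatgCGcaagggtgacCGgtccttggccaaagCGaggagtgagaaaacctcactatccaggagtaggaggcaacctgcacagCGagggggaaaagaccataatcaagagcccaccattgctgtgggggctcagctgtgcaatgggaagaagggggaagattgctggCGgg
Stx17: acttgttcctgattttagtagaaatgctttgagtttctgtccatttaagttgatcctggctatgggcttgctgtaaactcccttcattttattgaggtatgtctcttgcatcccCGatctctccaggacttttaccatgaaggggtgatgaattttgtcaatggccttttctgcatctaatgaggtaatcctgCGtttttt
Atg16l1: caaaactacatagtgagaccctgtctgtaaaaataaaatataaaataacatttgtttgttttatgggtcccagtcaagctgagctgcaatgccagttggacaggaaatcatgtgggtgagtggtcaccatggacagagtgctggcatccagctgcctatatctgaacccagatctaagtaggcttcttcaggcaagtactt
Atg101: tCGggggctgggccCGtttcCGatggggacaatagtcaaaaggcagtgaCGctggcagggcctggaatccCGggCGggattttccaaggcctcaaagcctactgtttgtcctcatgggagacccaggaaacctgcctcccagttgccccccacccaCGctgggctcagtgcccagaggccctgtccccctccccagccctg
The summit window of Pink1 (chr4:138330378-138330578) held 10 CG dinucleotides, that of Atg101 (chr15:101277631-101277831) held 7 and that of Vps16 (chr2:130411481-130411681) held 5. The window of Stx17 (chr4:48122761-48122961) held 2, and that of Atg16l1 (chr1:87750684-87750884) held 0. Over the whole nearest regions of the 7 genes, CG dinucleotides ran from 0.381 per 100 bases at Stx17 to 3.0 at Wipi1, with a median of 1.81. Low numbers were general in the AAV-Cre list, with medians of 1.25 for regions without AAV-GFP overlap and 1.65 for those with it. The start sites of the genes themselves were richer. Within 500 bp of the start site, the number ran from 6.59 at Stx17 to 8.69 per 100 bases at Atg16l1, with a median of 6.99 against 4.70 over all protein-coding genes and 4.40 over the genes with a region only in AAV-Cre. The marked sequence near these genes was thus poorer in CG dinucleotides than the start sites, and no region of either list touched a start site of the 7 genes.

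The 2 lists differed as a whole, which bears on every count for the 7 genes. The AAV-Cre list held 59267 regions over 73.7 Mb with a median width of 753 bp and a minimum of 300 bp. The AAV-GFP list held 34586 regions over 14.9 Mb with a median width of 231 bp and a minimum of 120 bp. The authors' q-value was at or under 0.05 for 88.6% of the AAV-Cre regions and 46.8% of the AAV-GFP regions. Within 15 kb of a start site, 3237 of the 21851 protein-coding genes (14.8%) had a region only in AAV-Cre, 264 (1.21%) only in AAV-GFP, and 5850 (26.8%) in both. The lists were also checked against genes of known state. All 20 of 20 developmental regulators had a region in both lists. Of 20 genes highly expressed in hepatocytes, 1 had a region in AAV-Cre (Cyp2e1) and 1 had a region in AAV-GFP. The depth of the libraries is unknown from these files. Fold enrichment is the value the peak caller gave over local input and is used here only to describe regions within 1 list.

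To place the 7 genes in their pathway, 79 autophagy genes were grouped by step, from initiation to fusion with cargo receptors and mitophagy. Lysosomal enzymes and transcription factors were not part of this list. A region only in AAV-Cre was found at 7 genes (8.86%), beside 14.8% of all protein-coding genes, and these were the 7 members themselves. A region in both lists was found at 6 genes (7.59%), beside 26.8% of all genes. A region only in AAV-GFP was found at 0, beside 1.21% of all genes. No region within 15 kb in either list was found at 66 (83.5%), and most of all protein-coding genes had none either. Since the list was assembled with the members known, these shares describe the list and nothing is read from their size. By step, 3 of 16 genes of fusion (Stx17, Plekhm1, Vps16), 1 of 5 of initiation (Atg101), 1 of 11 of membrane supply and PI3P effectors (Wipi1), 1 of 16 of conjugation (Atg16l1) and 1 of 8 of mitophagy (Pink1) had a region only in AAV-Cre. None of the 8 genes of nucleation or the 15 cargo receptors did.

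**Figure D1:**
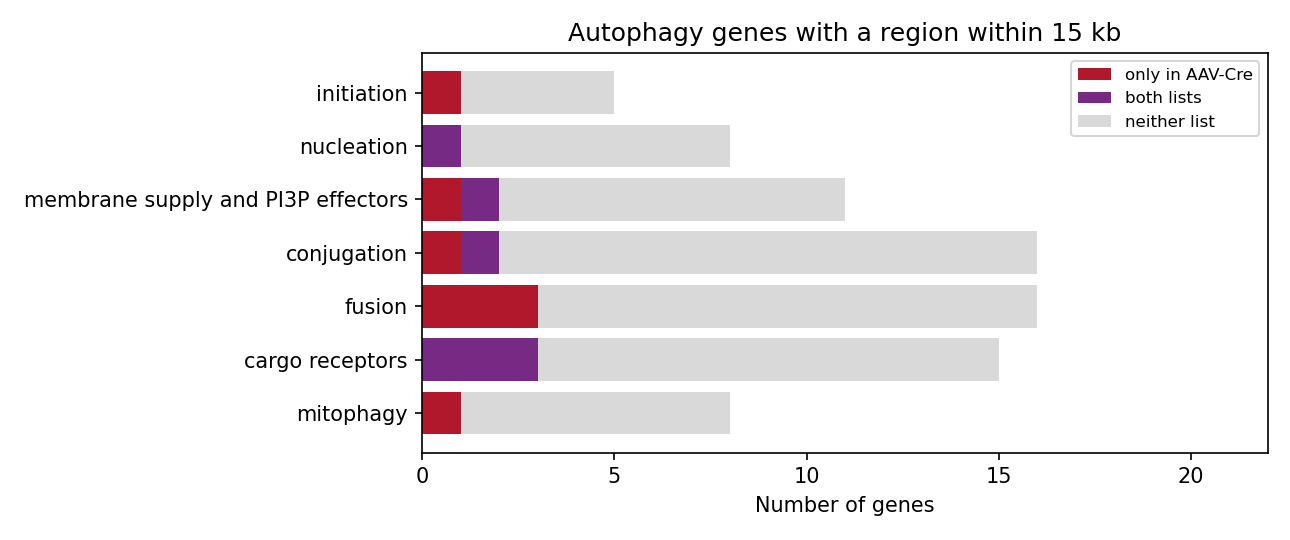
Number of autophagy genes (horizontal axis) at each step (vertical axis), coloured by the lists with a region in the 15 kb window (only AAV-Cre, both or neither). Most genes of every step have no region in either list, as do most of all protein-coding genes. Fusion holds 3 of the 7 genes called only in AAV-Cre.

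The partners of the 7 genes mostly had no region in the window, which was also so for most protein-coding genes. The 6 autophagy genes with regions in both lists were Pik3c3, the lipid kinase of nucleation, Atg9b, a lipid scramblase, Gabarapl2, a relative of LC3, and the receptors Calcoco1, Tollip and Retreg1. At Retreg1, a receptor for degradation of the endoplasmic reticulum, a region of 4936 bp with enrichment of 11.2-fold (q-value 7.25e-48) lay over the start site in AAV-Cre, and an AAV-GFP region lay there as well. It was the 1 gene of the 79 with a region within 1 kb in either list. At the others the distances in AAV-Cre and AAV-GFP were 8747 and 6973 bp (Pik3c3), 3490 and 4512 bp (Atg9b), 6951 and 7903 bp (Gabarapl2), 10621 and 13487 bp (Calcoco1), and 2636 and 2893 bp (Tollip).

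The window of 15 kb placed some genes just inside and others just outside. Inside it, the most distant members were Vps16 at 12471 bp and Wipi1 at 10605 bp. Just outside, the nearest AAV-Cre region was at 15130 bp for Wdfy3, a scaffold for the removal of protein aggregates, and at 15248 bp for Ykt6, a second SNARE of the autophagosome. It was at 16004 bp for Tmem41b, a lipid scramblase, at 17039 bp for Gabarapl1, a relative of LC3, at 17260 bp for Vps18, a partner of Vps16 in the same complexes, and at 19894 bp for Atg4d, a protease of LC3 relatives. AAV-GFP regions were close by at 3 of these 6 genes, at 16417 bp for Ykt6, 17428 bp for Vps18 and 21001 bp for Atg4d. They were farther at Wdfy3 (59864 bp), Tmem41b (119639 bp) and Gabarapl1 (497636 bp). On the side of the control list, the member nearest to losing its call was Vps16, whose closest AAV-GFP region lay at 17146 bp, followed by Plekhm1 at 23793 bp.

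**Figure D2:**
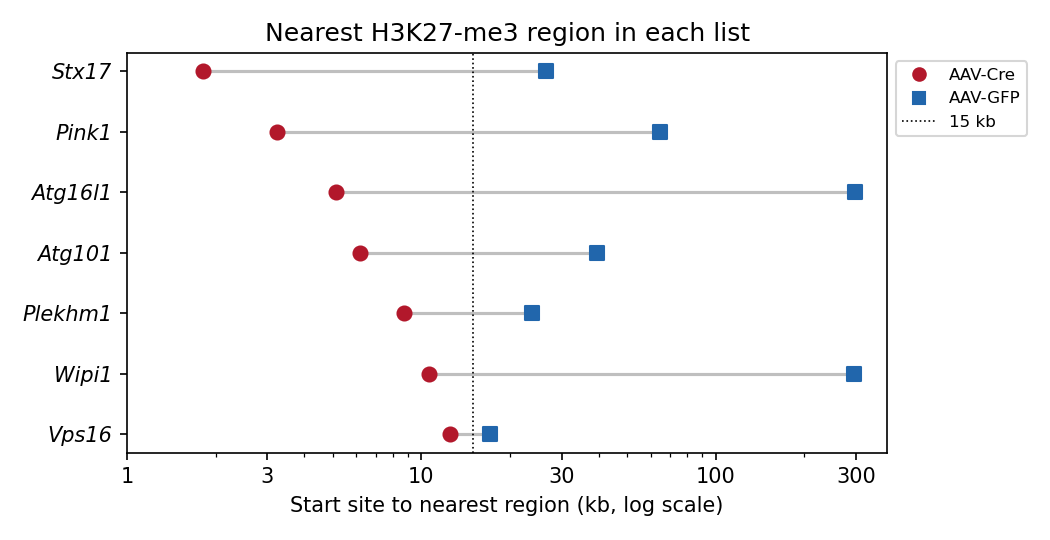
Distance from a start site to the nearest region (horizontal axis, kb, log scale) for each gene (vertical axis), with AAV-Cre as red circles, AAV-GFP as blue squares and the 15 kb window as a dotted line. The AAV-Cre regions sit between 1818 and 12471 bp, and the AAV-GFP regions between 17146 and 296404 bp, with the shortest gap at Vps16.

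Within 50 kb of the start sites of the 7 genes lay 82 AAV-Cre regions, which covered 84112 bp, and 16 AAV-GFP regions, which covered 7528 bp. The AAV-Cre regions lay mostly upstream (59 of 82), and 0 lay over a start site. The side differed by gene, since all 22 at Stx17 lay upstream and most at Pink1 and Atg101 lay downstream. The 82 regions were 301 to 4458 bp wide, with a median of 746 bp and fold enrichments from 1.91 to 10.3, and 69 had a q-value of 0.05 or lower. The AAV-GFP regions were 120 to 1909 bp wide, and 8 of the 16 had a q-value of 0.05 or lower. They lay near 4 of the genes only, with 6 at Stx17, 4 at Atg101, 3 at Plekhm1 and 3 at Vps16. Of the 16, 15 overlapped an AAV-Cre region, beside 86.4% of the whole AAV-GFP list. With distance from the start site, the AAV-Cre and AAV-GFP counts were 4 and 0 up to 5 kb, 8 and 0 from 5 to 10 kb, 6 and 0 from 10 to 15 kb, 4 and 1 from 15 to 20 kb, 17 and 5 from 20 to 30 kb, 23 and 2 from 30 to 40 kb, and 20 and 8 from 40 to 50 kb. The AAV-GFP counts of 0 up to 15 kb are what the selection requires.

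**Figure D3:**
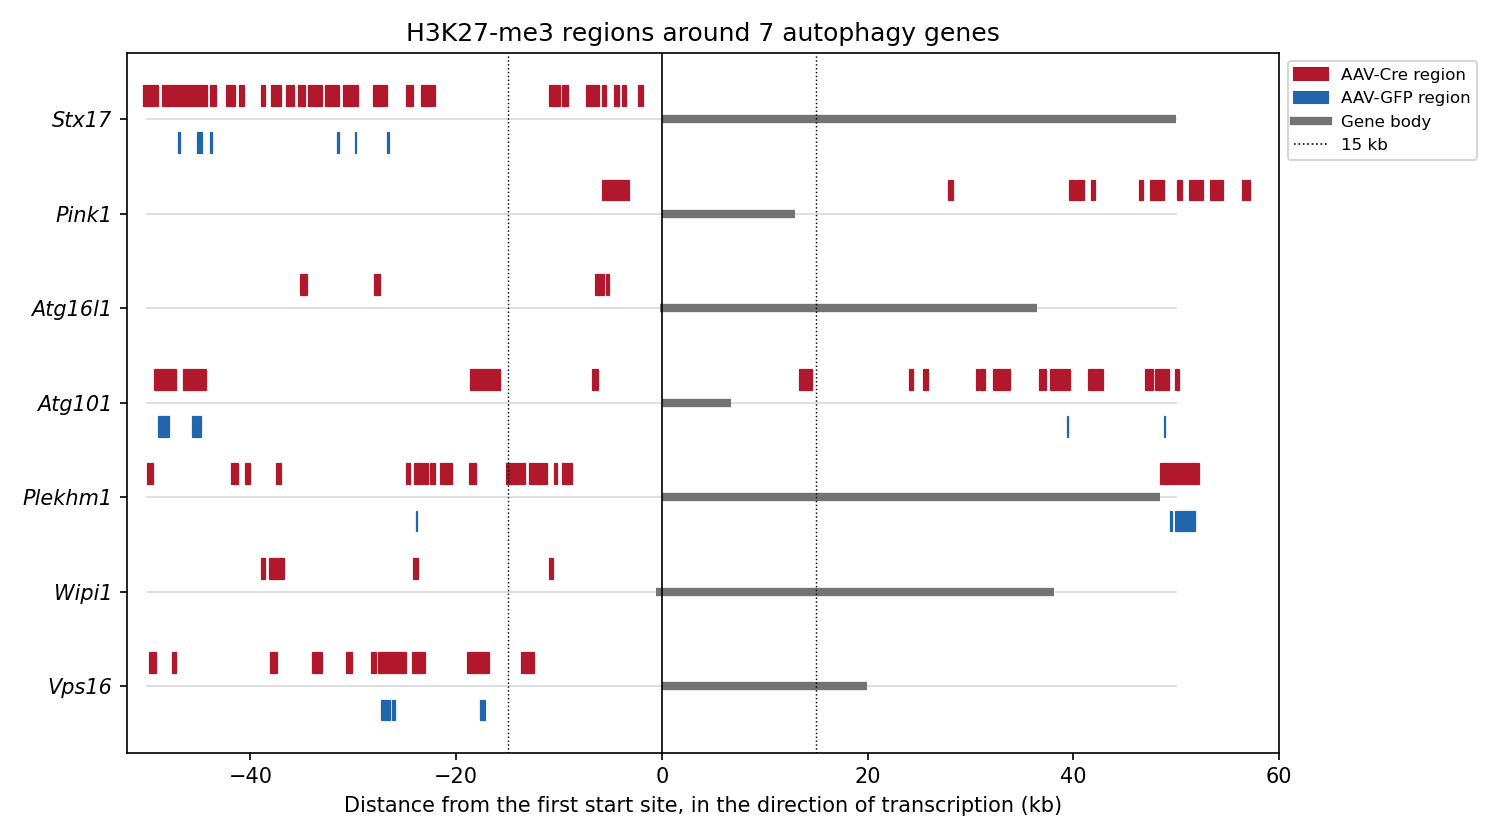
Regions around the 7 genes by distance from the first start site in the direction of transcription (horizontal axis, kb), with AAV-Cre regions in red above each line, AAV-GFP regions in blue below it, the gene body in grey (shown up to 50 kb) and the 15 kb window dotted. Of the AAV-Cre regions 59 lie upstream, while no region lies inside a gene body apart from 32 bp at the end of Plekhm1. Regions of Pink1 beyond 50 kb are within 50 kb of its later start sites.

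The genomic surroundings of these regions were then annotated. Of the 82 AAV-Cre regions, 54 lay outside protein-coding genes. The other 28 overlapped such a gene, 12 of them with coding sequence and 12 within introns alone, and 1 touched the member itself. For 45 of the 82 regions the start site of another protein-coding gene, counted over basic transcripts, was closer than that of the member, and the neighbours were Kif17, Ddost, Cpxm1, Tmem239, 6030408B16Rik, Krt80, Grasp, Nr4a1, Nr4a3, Prkar1a, Arhgap27 and Lrrc37a. Within 15 kb, where the selection was made, 17 of the 18 AAV-Cre regions lay upstream. By basic transcripts, 16 of the 18 had the member as the closest protein-coding gene. These 18 were 301 to 2629 bp wide with fold enrichments from 2.38 to 4.73, and 17 had a q-value of 0.05 or lower. Fewer had the member closest when start sites of all gene types and transcripts were counted. The long non-coding RNA gene Gm39397 was then closer to every Plekhm1 region in this window. Likewise, the long non-coding RNA gene Gm11685 was closer to the Wipi1 region (5717 bp away). Nr4a1 was closer to the upstream Atg101 region (4664 against 6171 bp).

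Stx17 (ENSMUSG00000061455.13, chr4:48124915-48186507, plus strand) had the most regions. In AAV-Cre, 7 regions lay upstream within 15 kb in a stretch of 9158 bp (chr4:48113940-48123097), of which they covered 4674 bp, all outside protein-coding genes and all with Stx17 as the closest gene. The closest, at chr4:48122573-48123097, was 525 bp wide and lay 1818 bp from the start site, with enrichment of 2.51-fold (q-value 0.023). Behind it followed chr4:48121036-48121381 (346 bp), chr4:48120225-48120723 (499 bp), chr4:48119082-48119442 (361 bp), chr4:48117527-48118781 (1255 bp), chr4:48115205-48115816 (612 bp) and chr4:48113940-48115015 (1076 bp). The strongest of the 7 was the region of 1255 bp, with enrichment of 3.30-fold (q-value 8.44e-05), and the weakest was that of 346 bp, with a q-value of 0.0573. The stretch thus consisted of short separate calls. Narrow peak calling splits a broad domain, so these calls do not tell whether the mark formed 1 domain.

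After a gap, 15 further AAV-Cre regions ran from 22099 bp upstream of Stx17 to beyond the 3′ end of Nr4a3, which encodes a nuclear receptor of the NR4A family. Of these, 9 lay between the genes with Stx17 closer by basic transcripts. They were chr4:48101473-48102816 (1344 bp, fold enrichment 4.12), chr4:48100023-48100745 (723 bp), chr4:48096801-48098205 (1405 bp), chr4:48093935-48095336 (1402 bp), chr4:48092130-48093578 (1449 bp), chr4:48090535-48091842 (1308 bp), chr4:48089505-48090200 (696 bp), chr4:48088388-48089139 (752 bp) and chr4:48086886-48087873 (988 bp). The region chr4:48085940-48086386 (447 bp) lay in the 3′ untranslated sequence of Nr4a3, and by basic transcripts the start site of Stx17 was closer. With transcripts outside the basic set, a start site of Nr4a3 was closer both to this region (34692 against 38529 bp) and to that of 988 bp (35638 against 37042 bp). The last 5 were closer to Nr4a3. Among these, chr4:48083798-48084262 (465 bp) lay in its 3′ untranslated sequence and chr4:48082552-48083436 (885 bp) over 245 bp of its coding sequence. The others, chr4:48080969-48081558 (590 bp), chr4:48076290-48080747 (4458 bp) and chr4:48074528-48075981 (1454 bp), lay in an intron. The region of 4458 bp was the widest around any of the 7 genes, with enrichment of 4.91-fold (q-value 2.63e-11).

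AAV-GFP regions were present over the same stretch but were short. At 26514 bp from the Stx17 start site lay chr4:48098244-48098401 (158 bp), the 1 AAV-GFP region of the 16 that overlapped no AAV-Cre region, with a q-value of 1.0. The regions chr4:48095048-48095204 (157 bp) and chr4:48093382-48093504 (123 bp) lay each inside an AAV-Cre region between the genes. In the introns of Nr4a3 lay chr4:48080978-48081192 (215 bp), chr4:48079696-48080212 (517 bp) and chr4:48077910-48078069 (160 bp), the first and the second with a q-value of 0.0671 and the last with 0.0138. In base pairs within 50 kb, AAV-Cre covered 23040 and AAV-GFP 1330.

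Pink1 (ENSMUSG00000028756.12, chr4:138313409-138326307, minus strand) had 1 region within 15 kb, the strongest of the nearest regions of the 7 genes. It spanned 2629 bp (chr4:138329539-138332167) between genes, 3232 bp upstream of a start site, with enrichment of 4.73-fold (q-value 1.4e-10). The next start site of another protein-coding gene, that of Ddost, was 24809 bp away. The closest AAV-GFP region to a Pink1 start site was at 64856 bp, so that none lay within 50 kb. The other 10 AAV-Cre regions of Pink1 all lay downstream over Kif17, a kinesin motor gene, and none overlapped an AAV-GFP region. Of these, 4 had Ddost as the closest gene, namely chr4:138298043-138298453 (411 bp), chr4:138286276-138286777 (502 bp), chr4:138285247-138286174 (928 bp) and chr4:138284195-138284570 (376 bp). The other 6 had Kif17 as the closest gene, namely chr4:138279512-138279955 (444 bp), chr4:138277506-138278869 (1364 bp), chr4:138275759-138276203 (445 bp), chr4:138273736-138275115 (1380 bp), chr4:138271733-138273027 (1295 bp) and chr4:138269123-138269966 (844 bp). The regions of 411, 502, 1364, 1380 and 844 bp overlapped coding sequence of Kif17, by 102 to 453 bp, and the other 5 lay in its introns.

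Atg16l1 (ENSMUSG00000026289.15, chr1:87755870-87792428, plus strand) had a pair of regions close together upstream. The nearer, chr1:87750584-87750884, was 301 bp wide, near the minimum of the list, and lay 5129 bp from a start site with enrichment of 2.64-fold (q-value 0.0086). The second, chr1:87749503-87750414, was 912 bp wide with enrichment of 3.12-fold (q-value 0.000291). Farther upstream lay chr1:87728010-87728583 (574 bp, 27430 bp away, q-value 0.137) and chr1:87720822-87721562 (741 bp, 34451 bp away, q-value 0.0086). All 4 were outside protein-coding genes with Atg16l1 as the closest gene by basic transcripts. When transcripts outside the basic set were counted, a start site of Inpp5d, an inositol phosphatase gene, was closer to the farther pair, at 18669 and 11481 bp. In AAV-GFP, no region came closer than 296404 bp.

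Atg101 (ENSMUSG00000037204.7, chr15:101284272-101290945, plus strand) had a region on each side within 15 kb. The upstream one, chr15:101277525-101278101, was 577 bp wide and lay 6171 bp from the start site, with enrichment of 2.90-fold (q-value 0.00299). It had the highest GC content of the nearest regions, at 60.3%. A start site of Nr4a1, a second nuclear receptor gene of the NR4A family, was 4664 bp away when transcripts outside the basic set were counted. The downstream one, chr15:101297608-101298844, was 1237 bp wide at 13336 bp, with a q-value of 5.93e-06, and was closer to the gene 6030408B16Rik (4376 bp). Just beyond the window, at 15740 bp, a region of 2878 bp (chr15:101265655-101268532) covered a start site of Nr4a1, with 126 bp of 5′ untranslated sequence. It was enriched 5.08-fold with a q-value of 2.86e-14, and it was the strongest AAV-Cre region without AAV-GFP overlap around the 7 genes.

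Still farther upstream of Atg101 lay chr15:101237721-101239991 (2271 bp, fold enrichment 8.65, q-value 2.51e-31) and chr15:101234891-101237052 (2162 bp, fold enrichment 7.22, q-value 7.46e-23). Both lay outside protein-coding genes with Grasp as the closest, and each held an AAV-GFP region, chr15:101238596-101239456 (861 bp) and chr15:101235310-101236360 (1051 bp). Downstream, 8 more regions had 6030408B16Rik as the closest gene, namely chr15:101308269-101308681 (413 bp), chr15:101309601-101310100 (500 bp), chr15:101314776-101315081 (306 bp), chr15:101315235-101315723 (489 bp), chr15:101316404-101318074 (1671 bp), chr15:101320949-101321587 (639 bp), chr15:101321990-101323893 (1904 bp) and chr15:101325710-101327181 (1472 bp). The keratin gene Krt80 was closest for chr15:101331202-101331955 (754 bp), chr15:101332176-101333530 (1355 bp) and chr15:101334103-101334527 (425 bp). All of these lay outside protein-coding genes. Grasp, 6030408B16Rik and Krt80 were the closest among protein-coding genes only. When start sites of all gene types were counted, a gene of another type was closer to every AAV-Cre region of this paragraph. The regions of 1904 and 1355 bp held the short AAV-GFP regions chr15:101323638-101323768 (131 bp, q-value 0.193) and chr15:101333048-101333167 (120 bp, q-value 0.884). In AAV-GFP, the calls on this side were therefore weak, while those on the side of Grasp had q-values of 1.35e-06 and 1.86e-07.

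Plekhm1 (ENSMUSG00000034247.9, chr11:103364275-103412687, minus strand) had 4 AAV-Cre regions within 15 kb, in an upstream stretch of 6433 bp of which they covered 4837 bp. They were chr11:103421395-103422360 (966 bp), chr11:103422898-103423206 (309 bp), chr11:103423857-103425583 (1727 bp) and chr11:103425993-103427827 (1835 bp). The closest lay 8708 bp from the start site, with enrichment of 2.64-fold (q-value 0.0086), and covered a start site of the long non-coding RNA gene Gm39397. The region of 1727 bp was the strongest, with enrichment of 3.34-fold (q-value 8.44e-05). Plekhm1 was the closest protein-coding gene for all 4.

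The regions of Plekhm1 went on upstream for 9 more with the same closest protein-coding gene. A start site of Gm39397 was closer to each of these 9 when all gene types were counted. These were chr11:103430735-103431485 (751 bp), chr11:103433088-103434243 (1156 bp), chr11:103434704-103435188 (485 bp), chr11:103435374-103435819 (446 bp), chr11:103435937-103436758 (822 bp), chr11:103437173-103437562 (390 bp), chr11:103449707-103450217 (511 bp), chr11:103452678-103453213 (536 bp) and chr11:103453930-103454615 (686 bp). The regions of 536 and 686 bp lay in introns of Lrrc37a. So did the region chr11:103462165-103462751 (587 bp), which had Lrrc37a as the closest protein-coding gene. The region of 822 bp held the AAV-GFP region chr11:103436480-103436602 (123 bp, q-value 0.979), 23793 bp from the start site. At the other end of the gene, chr11:103360476-103364306 spanned 3831 bp over a start site of Arhgap27 and over the last 32 bp of the 3′ untranslated sequence of Plekhm1. Its fold enrichment was 9.48 and its q-value 2.58e-36, and it held the AAV-GFP regions chr11:103363080-103363293 (214 bp) and chr11:103360898-103362806 (1909 bp), the latter with a q-value of 1.03e-10. The strong mark on this side was therefore present in both lists and lay on the neighbouring gene.

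Wipi1 (ENSMUSG00000041895.15, chr11:109573331-109611967, minus strand) was called on 1 narrow region. That region, chr11:109622037-109622369, was 333 bp wide and lay 10605 bp upstream outside protein-coding genes, with enrichment of 2.47-fold (q-value 0.023). Soft-masked repeats made up 58.6% of its bases, the largest share among the nearest regions of the 7 genes, and the start site of the long non-coding RNA gene Gm11685 was 5717 bp away. Wipi1 was no longer called when a q-value of at most 0.01 was asked for. The other 3 regions had Prkar1a, a regulatory subunit of protein kinase A, as the closest gene. They were chr11:109635168-109635597 (430 bp) between genes, chr11:109648183-109649655 (1473 bp, fold enrichment 3.69, q-value 5.93e-06) over a start site of Prkar1a, and chr11:109649993-109650415 (423 bp) in its intron. The nearest AAV-GFP region to Wipi1 was 295333 bp away.

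Vps16 (ENSMUSG00000027411.17, chr2:130424339-130444269, plus strand) had a strong region that was closer to another gene. Its 1 region within 15 kb, chr2:130410623-130411894, was 1272 bp wide and lay 12471 bp upstream outside protein-coding genes, with enrichment of 4.52-fold (q-value 3.64e-09). The start site of Tmem239, a transmembrane protein gene, was 4145 bp from it, and the nearest AAV-GFP region was 3404 bp from its edge. This AAV-GFP region, chr2:130406730-130407219 (490 bp, q-value 0.00638), lay over exons of Tmem239 and Gm28372 and inside the next AAV-Cre region, chr2:130405441-130407571 (2131 bp, fold enrichment 4.65, q-value 7.22e-10). The 2131 bp also overlapped exons of 1700020A23Rik.

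The other 8 AAV-Cre regions of Vps16 had Cpxm1, a member of the carboxypeptidase family, as the closest protein-coding gene. For some of these, a start site of a pseudogene was closer when all gene types were counted. The strongest region around the 7 genes, chr2:130396752-130399475 (2724 bp, fold enrichment 10.3, q-value 1.76e-41), covered a start site of Cpxm1 and held the AAV-GFP regions chr2:130397055-130397982 (928 bp, q-value 2.31e-14) and chr2:130398088-130398458 (371 bp, q-value 0.000136). Over exons of Cpxm1 lay chr2:130396105-130396605 (501 bp), chr2:130393615-130394258 (644 bp) and chr2:130390372-130391301 (930 bp). Outside protein-coding genes lay chr2:130400037-130401292 (1256 bp), chr2:130386254-130386974 (721 bp), chr2:130376756-130377099 (344 bp) and chr2:130374558-130375210 (653 bp). All 10 AAV-Cre regions of Vps16 thus had another gene closer.

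Regions shared by the lists around the 7 genes were wider and stronger in AAV-Cre than the others, as in the list as a whole. The 12 AAV-Cre regions that overlapped an AAV-GFP region were 590 to 4458 bp wide with fold enrichments from 2.73 to 10.3, and 8 of them were among the strongest 20% of the AAV-Cre list by p-value. The 70 that did not were 301 to 2878 bp wide with fold enrichments from 1.91 to 5.08, and 5 of them were among the strongest 20%. The share that overlapped an AAV-GFP region was 14.6% around the 7 genes, beside 24.2% over the whole AAV-Cre list. The selection itself lowers this share. It allowed no AAV-GFP region within 15 kb, where 18 of the 82 AAV-Cre regions lay, and 0 of these 18 overlapped one. The 2 shares are therefore not compared. The shared regions lay from 16794 to 48381 bp from a start site, beyond the window by which the genes were chosen. Over the whole AAV-Cre list, the share of regions that overlapped an AAV-GFP region fell from 93.3% in the strongest of 10 classes, unequal in size because p-values are tied, to 54.8% in the next and to 6.53% in the weakest.

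**Figure D4:**
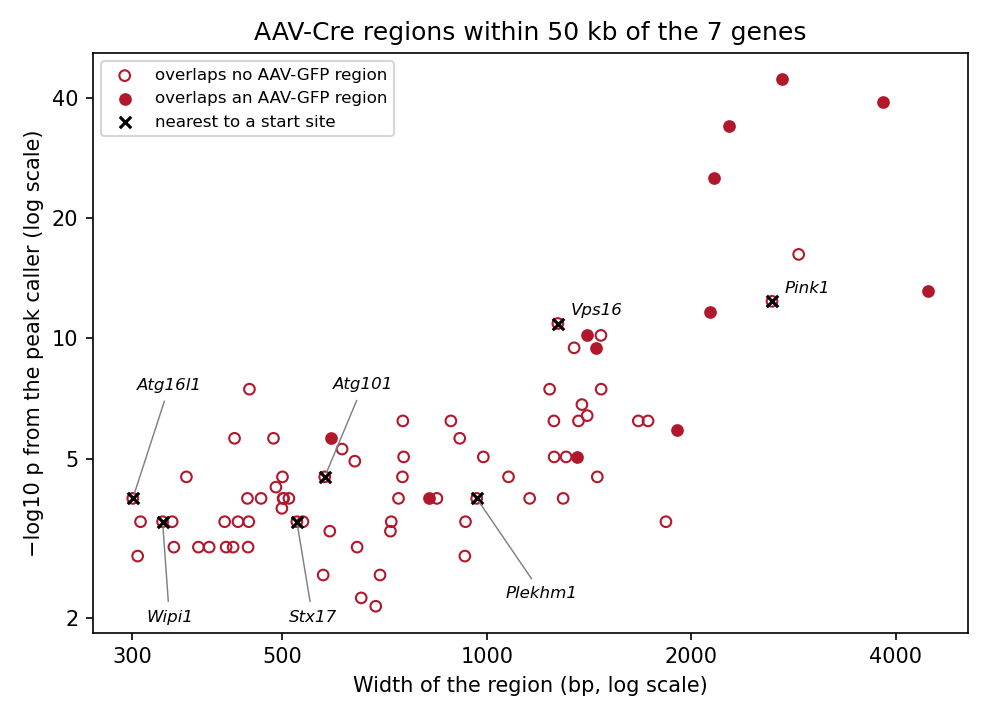
Width (horizontal axis, bp, log scale) and −log10 p (vertical axis, log scale) of the AAV-Cre regions around the 7 genes, marked by whether they overlap an AAV-GFP region, with the nearest region of each gene named. The 12 shared regions reach a −log10 p of 44.5, and the nearest regions of 5 of the 7 genes sit below 5.

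By strength, the nearest regions of the 7 genes fell into different classes. Those of Pink1 and Vps16 were among the strongest 11.5% and 13.6% of the AAV-Cre list, in a class of which 54.8% was shared with AAV-GFP. That of Atg101 stood at 50.7%, those of Atg16l1 and Plekhm1 both at 62.0%, and those of Stx17 and Wipi1 both at 75.6%. In the classes that held these 5 regions, 5.09 to 7.63% of all AAV-Cre regions overlapped an AAV-GFP region. For regions of such strength, an AAV-Cre region without an AAV-GFP partner was therefore the usual case across the list. Whether H3K27-me3 below the limit of the AAV-GFP peak call was present at the 7 genes was not tested.

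The 7 genes were set beside the 3237 protein-coding genes with a region only in AAV-Cre, as a description. Their nearest region lay upstream at 7 of 7, against 50.8% of the 3237 genes. None of the 7 had a region within 1 kb of the start site, against 30.5%, and 2 (Stx17 and Pink1) had one within 5 kb, against 50.4%. An AAV-Cre region touched the gene body of 1 of 7 (14.3%, the 32 bp of Plekhm1), against 43.7%. The median distance was 6171 bp against 4913 bp, the median width 577 bp against 675 bp, and the median fold enrichment 2.64 against 2.77. The nearest region had a q-value of 0.01 or lower at 5 of 7 genes (71.4%), against 69.0%. By basic transcripts, it was closer to another protein-coding gene at 1 of 7 (14.3%), against 21.6%. Within 50 kb, the median was 11 AAV-Cre regions per gene against 5, and 4 of 7 genes (57.1%) had an AAV-GFP region there against 46.6%. With 7 genes chosen on the same peak calls, none of these differences was tested.

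The calls were followed across other settings of the window and of the peaks. Of 12 settings, the call of a region only in AAV-Cre was kept in 11 for Pink1, in 10 for Stx17 and Atg16l1, in 9 for Atg101 and Plekhm1, in 7 for Vps16 and in 6 for Wipi1. Some of these outcomes were fixed in advance. A minimum width of 300 bp leaves out no AAV-Cre region, so it could not remove a call. The window settings restate the nearest distances given above. The counts therefore describe the calls and are not a measure of their support. With a window of 1 kb it was lost at all 7 genes, and with 5 kb it stayed at Stx17 and Pink1. With a window of 50 kb, Stx17, Atg101, Plekhm1 and Vps16 had regions in both lists, while Pink1, Atg16l1 and Wipi1 had a region only in AAV-Cre. With a window of 20 kb, Vps16 had a region in both lists. Across the 7 genes, the call thus held at distances of several kb from the start site, and not at the start site itself.

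**Figure D5:**
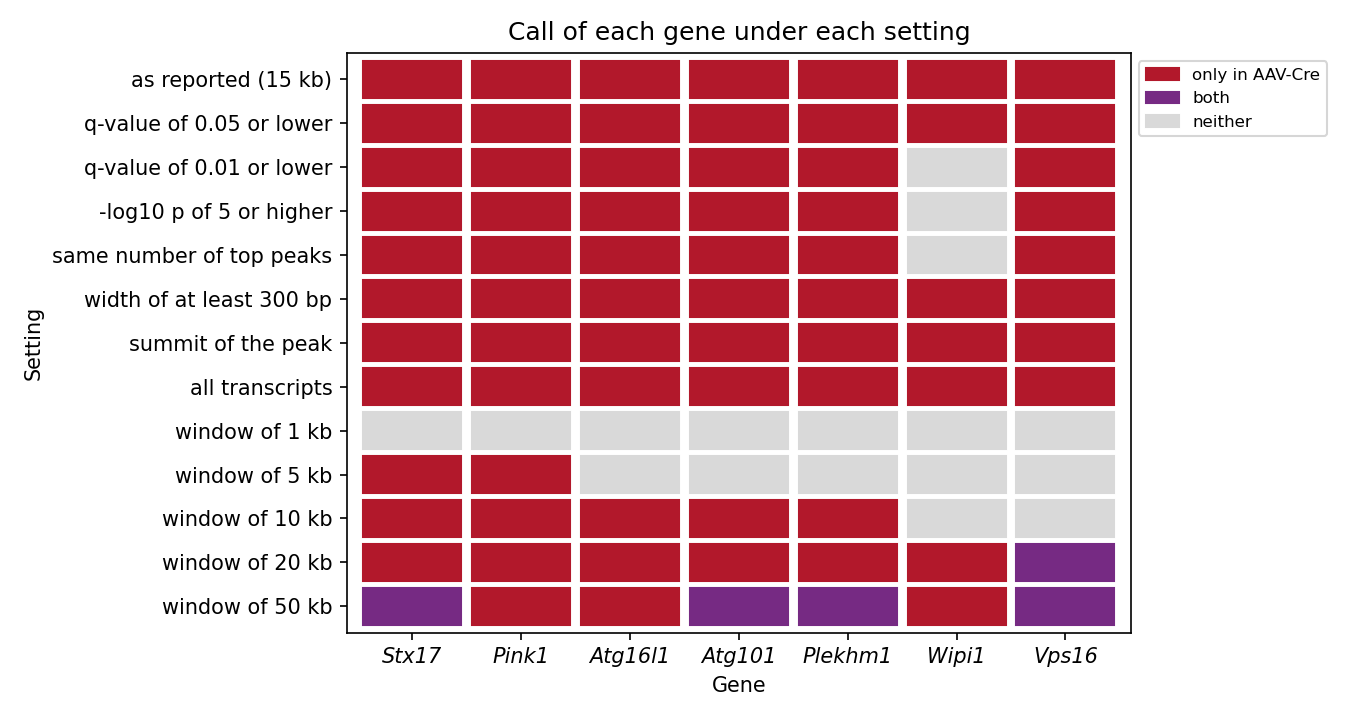
Call of each gene (horizontal axis) under each setting of window and peaks (vertical axis), with red for a region only in AAV-Cre, purple for both lists and grey for neither. The first line is the setting as reported. Wipi1 turns grey under 3 of the stricter peak settings, and all 7 genes are grey at 1 kb.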

How the data were processed

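H3K27-me3 ChIP-seq of mouse liver was performed by the authors with pooled input as the control. Reads were processed with the AQUAS pipeline in histone mode, mapped to mm10 with bwa 0.7.13 and filtered with Samtools 1.2 and Picard 1.126 per the submitters' processing notes, with peak calling by MACS. The authors kept the peaks found in both replicates as 1 list per group. Narrow peaks were called, which splits a broad domain into several regions. The deposited lists give each peak's position, its fold enrichment as a ratio to local input, and the −log10 of a p-value and of a q-value, as the authors' peak caller computed them. The q-values printed are the authors' own, converted from the −log10. The deposited display score was not used. There are no counts per library, so depth is unknown.

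Groups were taken from the sample labels. Distances ran from the edge of a peak to the closest of 41438 start sites of basic protein-coding transcripts (GENCODE M21, mitochondrial genes left out), and an overlap needed at least 1 bp. Gene parts and sequences came from GRCm38, which mm10 names. The 7 genes were given with the question, and they and the gene lists were chosen with earlier results of these data known. Named beside them are the protein-coding gene closest to each region, and autophagy genes that either list marks within 15 kb or AAV-Cre marks between 15 and 20 kb. Nr4a1, Nr4a3, Inpp5d, Gm39397 and Gm11685, with start sites of transcripts outside the basic protein-coding set, and genes whose body a region overlaps were named after the values were seen. Alternatives were q-values of 0.05 and 0.01 or lower, equal lists of the 34586 top peaks, a minimum width of 300 bp, windows of 1, 5, 10 and 50 kb, the peak summit, all transcripts, start sites of all gene types and merging within 5 kb. No test between groups was made, since each group has 1 list. The functions were tested on simulated data. Python 3.11.15, numpy 2.4.6 and pandas 2.3.3 were used.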

Additional observations from a re-analysis of the deposited data

How the results depend on the processing

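The window of 20 kb and the minimum −log10 p of 5 were chosen after seeing the data. Leaving out a library was not done, since both replicates of a group are combined in its list. No paired analysis was possible because replicates were combined before deposition. The cause of a change was not tested, apart from what a setting does by construction (fewer peaks, joined peaks or another window).

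Of the 7 genes, the number with a region only in AAV-Cre was 0 at 1 kb, 2 at 5 kb and 3 at 50 kb, and from 5 to 7 under the other settings. Wipi1 was the gene not called at q-values up to 0.01, with equal numbers of top peaks and at a −log10 p of 5 or higher, each with a count of 6. Of the 79 autophagy genes, the number was 0 at 1 kb, beside 7.63% of protein-coding genes, and 2 at 5 kb, beside 10.2%. It was 14 at 50 kb, beside 17.2%, and 11 with all transcripts, beside 15.7%. Under all settings other than 1 kb, the share of protein-coding genes ran from 10.0 to 21.6%.

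The 82 AAV-Cre regions within 50 kb became 41 with the same number of top peaks and 22 with merging within 5 kb. The 16 AAV-GFP regions became 8 at q-values up to 0.05, 6 at q-values up to 0.01, 7 with a minimum width of 300 bp and 9 with merging. The nearest region was closer to another gene at 1 of the 7 genes, but at 2 with a q-value of 0.01 or lower or with the same number of top peaks (Wipi1 and Vps16), at 2 with all transcripts (Atg101 and Vps16) and at 4 with start sites of all gene types (Wipi1, Atg101, Plekhm1 and Vps16).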
